A study of Mus musculus with 6 samples.

Results

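The proteasome genes of mouse haematopoietic stem cells (HSCs) were taken as all genes with a symbol that starts with Psm, a letter from a to g and a digit, on array probe sets that name 1 gene. The rule gave 49 of 18193 genes. Where several probe sets measured a gene, the brightest one on average across the 6 arrays was used. They comprise 14 constitutive subunits of the core particle (Psma1 to Psma7, Psmb1 to Psmb7), 3 immunoproteasome subunits (Psmb8, Psmb9, Psmb10), 2 tissue-specific core subunits (Psma8, Psmb11), 20 genes of the regulatory cap (Psmc and Psmd) and 8 genes of activators, an inhibitor and assembly chaperones (Psme, Psmf, Psmg). The remaining 2, Psmc3ip and Psme3ip1, match the symbol but encode no subunit. Psmc3ip encodes a factor of meiotic recombination and Psme3ip1 a protein that binds Psme3.

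The proteasome degrades proteins that carry ubiquitin chains. Its core is a barrel of stacked rings: outer alpha rings gate the entry, and inner beta rings hold the proteolytic sites. A cap on the end of the barrel recognises ubiquitin, removes it, and unfolds and threads the substrate with a ring of ATPases. Interferon-induced beta subunits can take the place of the constitutive catalytic ones, which changes the peptides made for antigen presentation. Blood stem cells are known to make protein slowly and to depend on tight protein quality control.

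The promoters of 3 members are shown because they encode constitutive catalytic subunits with a motif match (Psmb5, Psmb6) or gave the smallest p-value of the set (Psma7). Each runs from 250 bases before to 50 after the start of the gene in RefSeq's GRCm38.p6 annotation, read 5′ to 3′ on the gene's strand: Psma7 at chr2:180042415-180042714 (minus strand), Psmb5 at chr14:54617946-54618245 (minus strand) and Psmb6 at chr11:70525107-70525406 (plus strand). Capitals mark a match to TGACNNNGC, the core of the antioxidant response element, in Psmb5 and Psmb6, and a match to ATTGG on the opposite strand, the CCAAT box, in Psma7.
Psma7: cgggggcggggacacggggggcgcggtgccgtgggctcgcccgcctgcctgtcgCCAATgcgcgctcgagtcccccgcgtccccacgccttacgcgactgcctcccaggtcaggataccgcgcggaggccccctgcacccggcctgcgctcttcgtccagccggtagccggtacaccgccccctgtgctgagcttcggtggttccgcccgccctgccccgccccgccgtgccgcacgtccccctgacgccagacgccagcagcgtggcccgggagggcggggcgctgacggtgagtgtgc
Psmb5: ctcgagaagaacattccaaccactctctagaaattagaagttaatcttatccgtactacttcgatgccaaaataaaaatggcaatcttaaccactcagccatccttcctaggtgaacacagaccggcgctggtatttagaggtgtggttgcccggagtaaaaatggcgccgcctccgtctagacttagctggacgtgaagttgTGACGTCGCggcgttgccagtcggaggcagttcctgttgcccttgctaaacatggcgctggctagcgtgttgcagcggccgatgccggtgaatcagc
Psmb6: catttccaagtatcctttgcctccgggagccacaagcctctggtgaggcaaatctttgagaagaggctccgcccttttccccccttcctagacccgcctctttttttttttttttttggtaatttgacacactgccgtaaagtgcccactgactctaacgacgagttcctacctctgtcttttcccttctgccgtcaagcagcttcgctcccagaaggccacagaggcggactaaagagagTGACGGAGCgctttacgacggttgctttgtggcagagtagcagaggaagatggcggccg

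The match began 47 bases before the start of Psmb5, 9 before that of Psmb6 and 196 before that of Psma7. Nfe2l1 and Nfe2l2, transcription factors known to drive proteasome genes, bind the antioxidant response element with small Maf proteins. Among 41 promoters of the 39 subunit and helper genes with an entry, of 47 looked for, TGACNNNGC was found on either strand in 6, or 14.6%, against 12.4% of 32851 promoters of all genes and 14.4% of those of genes at or above the median level on these arrays. Besides Psmb5 and Psmb6 these were Psmc6, Psmd9, Psmd12 and Psme4. The immunoproteasome genes Psmb8, Psmb9 and Psmb10 had no match to TGACNNNGC in these windows. ATTGG, the CCAAT box bound by NF-Y, was found in 34.1% of the members' promoters, 37.4% of all promoters and 37.2% of those of the brighter genes. CCGGAAGT, a site of ETS factors, was found in 10 of the 41, or 24.4%, against 3.89% of all promoters and 8.64% of those of the brighter genes. The ETS matches lay in Psma6, both promoters of Psmc2, Psmc1, Psmd6, Psmd12, Psmd13, Psme3, Psme4 and Psmg3. The motifs were counted separately, and Psmd12 and Psme4 hold both the antioxidant and the ETS letters. These shares describe letters only.

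The cells came from SCL-tTA H2B-GFP mice, in which the transactivator tTA-S2 is made from the endogenous scl (Tal1) locus and switches on a histone H2B-GFP fusion in stem and progenitor cells. Doxycycline shuts the fusion off, so that label is then diluted by division. All samples followed a 170 day chase on doxycycline and a sort from bone marrow for Sca1+, cKit+ and CD150+ cells negative for Lin, CD34 and CD48. The 3 LRC (label-retaining) samples were GFP+ and the 3 non-LRC samples GFP Neg, and the comparison asks what differs between HSCs that kept the label and HSCs that did not. A GFP Neg cell may have divided or may never have carried label, because label depends on the activity of the scl locus. The labels call the samples independent biological replicates. The animals' age and sex and any pooling are not given in the sources used here.

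All values are log2 expression values with array medians of 4.33 to 4.39, and LRC replicate 1 stood furthest from the rest (mean Pearson r across probe sets 0.912, against 0.927 to 0.947). Spiked hybridization controls averaged 11.24 on LRC replicate 1 and 11.02 on LRC replicate 3, against 10.58 to 10.70 on the other 4 arrays. All 8 measured genes of the gate and of HSCs lay above the array median on every array. Cd48 lay below it on every array, whereas Cd34, also a negative marker of the sort, lay above it on 5 of 6 (2.52 on LRC replicate 1, 5.10 to 7.43 elsewhere). Flt3, listed with them as absent, read 3.48 to 5.87 and lay above the median on some arrays. Granulocyte and monocyte markers averaged 6.32 to 7.39 in non-LRC and 5.73 to 6.80 in LRC (8 of 8 measured), dendritic cell markers 4.99 to 5.62 and 4.78 to 5.93 (5 of 5), and megakaryocyte markers 5.05 to 6.27 and 5.22 to 5.30 (5 of 5). Erythroid (5 of 7), B cell (5 of 6), T and NK cell (5 of 6) and endothelial or stromal markers (6 of 6) averaged 2.82 to 5.24 in non-LRC and 2.86 to 4.33 in LRC. Single markers stood higher. Cd79b read 5.52 to 7.17, whereas the other 4 measured B cell markers lay below the median of every array. Of the erythroid markers, Klf1 read 6.76 on non-LRC replicate 1 and 6.21 on LRC replicate 1, and Car1 7.34 on non-LRC replicate 1. The part of these other cell types in the proteasome values was not tested. Fewer cells of a type and less RNA per cell cannot be told apart in such bulk samples.

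No proteasome gene passed the test between LRC and non-LRC HSCs. Limma called 0 of the 49 members at an adjusted p under 0.05, and 0% of all genes and probe sets were called (smallest adjusted p among members 0.998). At an unadjusted limma p under 0.05, 1 member, Psma7, was lower in LRC, against 2.02% of all genes and 3.44% of genes at or above the median level, and 0 were higher, against 1.73% and 2.5%. The groups were fully apart for 3 members. Psma7 was the 1 member below non-LRC on every LRC array, a pattern of 3.62% of all genes and 5.39% of the brighter genes, and Psmb10 and Psmb11 were the 2 above, a pattern of 4.71% and 4.36%. These counts are near the background. In arrays simulated for this comparison the test found 0% of the changes of 1 (log2) and 44% of the changes of 2. The changed probe sets were drawn from all 45037, with noise independent between probe sets. The members' standard errors were larger (median 0.33, against 0.28 over all probe sets), so these rates need not hold for them. The 95% interval of the difference reached 0.79 to either side at the median member, from 0.45 at the narrowest to 3.57 at the widest, and for 32 of 49 members it took in a difference of more than 1 in size.

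The means leaned toward lower values in LRC. Of the 49 members 37 had a lower mean in LRC, against 45.1% of all genes and 52.9% of genes at or above the median level, and 12 a higher mean, against 54.9% and 47.1%. The median difference (LRC minus non-LRC, log2) was -0.17, against 0.03 over all genes and -0.03 over genes at or above the median level. By particle it was -0.35 in the core (12 of 14 lower), -0.20 in the cap (15 of 20 lower), -0.11 among activators, inhibitor and chaperones (6 of 8 lower) and 0.02 in the immunoproteasome (1 of 3 lower). The sizes moved with single arrays: over all members the median was -0.33 without LRC replicate 2 and -0.10 without LRC replicate 3, in the core -0.04 without LRC replicate 1, and in the cap -0.45 without LRC replicate 2 and -0.07 without LRC replicate 3. The lean did not extend to LRC replicate 2. With that array alone for LRC, 19 of 49 members lay lower and the median difference was 0.15. In that setting 10353 of 18193 genes lay lower (median -0.06), and 4293 of 9097 genes at or above the median level (median 0.03). With the array's mean of the hybridization controls as a covariate, 22 of 49 members lay lower and the median was 0.09. There 10362 of 18193 genes lay lower (median -0.06), and 4229 of the 9097 (median 0.04). That fit rests largely on LRC replicate 2.

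**Figure D1:**
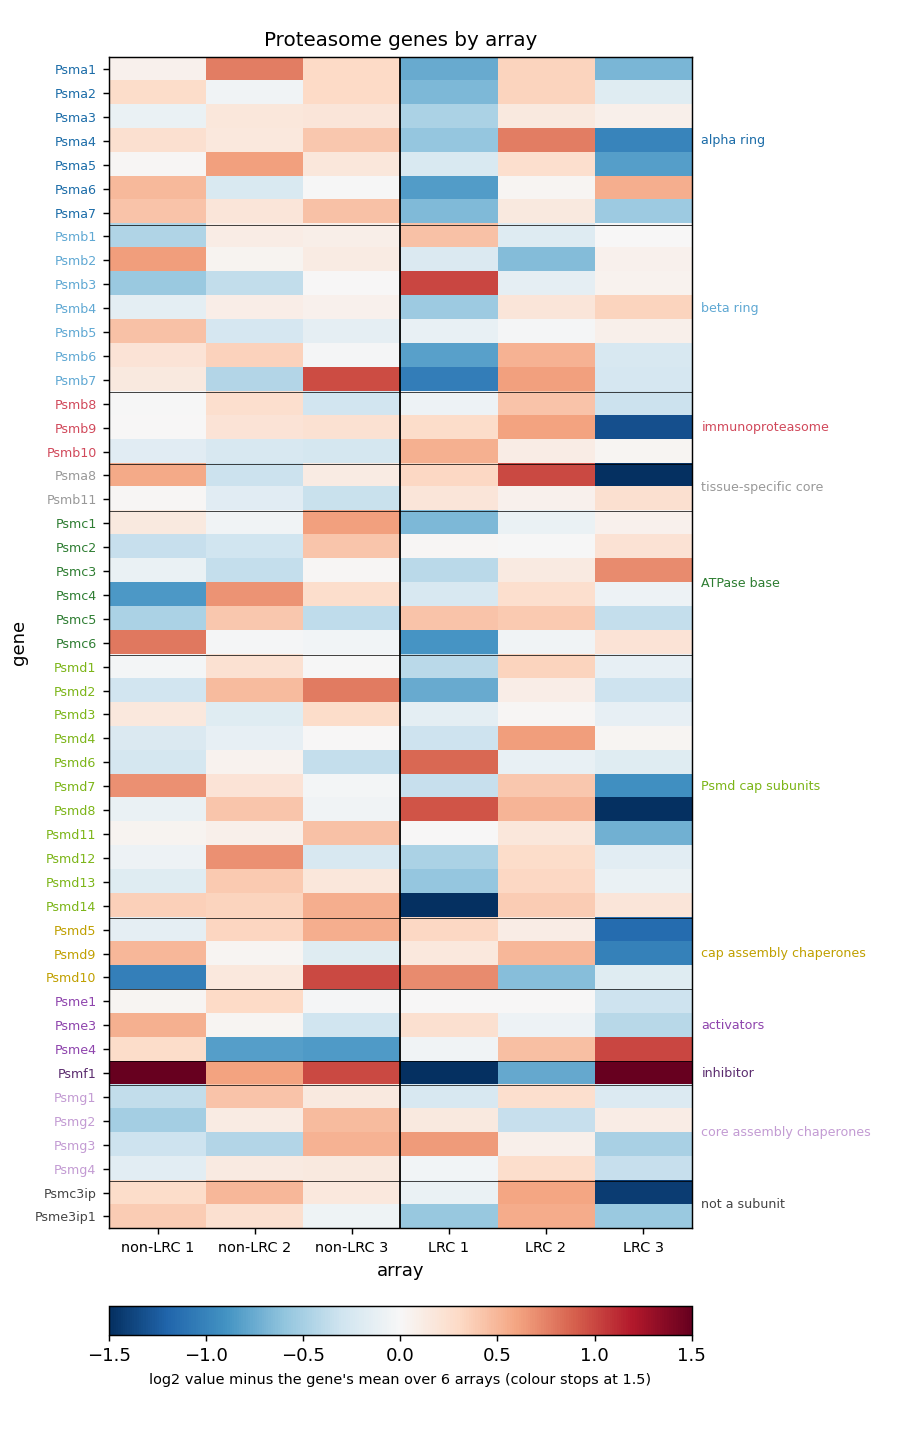
Log2 expression of each proteasome gene (rows, grouped by role) on each array (columns), shown as the deviation from the gene's own mean over the 6 arrays; colour stops at a deviation of 1.5. The alpha ring is low on LRC replicate 1 and mostly on LRC replicate 3 but not on LRC replicate 2. By median the Psmd cap subunits follow the same pattern (-0.35, -0.16 and 0.31). So do the 2 genes that are not subunits (-0.33, -0.99 and 0.57), and the other groups are mixed.

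In the alpha ring, which gates the core and docks the cap, all 7 genes had a lower mean in LRC, with a median difference of -0.53 and a range of -0.75 to -0.16. Psma7 read 9.47, 9.23 and 9.49 on the non-LRC arrays and 8.38, 9.19 and 8.50 on the LRC arrays. The groups did not overlap, but LRC replicate 2 lay only just below the lowest non-LRC array. The difference was -0.71 (SE 0.27, unadjusted p = 0.0357, adjusted p = 0.998, limma), a 1.63-fold lower level. Because the groups were apart, it had to stay negative when single arrays were left out (-0.95 to -0.55). With the control covariate it was -0.30. Its other probe set differed by -0.42.

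Psma1 had non-LRC values of 7.88, 8.59 and 8.12 and LRC values of 7.07, 8.16 and 7.13. LRC replicates 1 and 3 were low and LRC replicate 2 lay within the non-LRC range. The difference was -0.75 (SE 0.36). The next brightest probe set of the gene (mean 4.34) went the other way, by 0.86 (SE 0.66). Of its 3 dimmer probe sets the other 2, at means of 2.49 and 2.15, differed by -0.33 and -0.06. For Psma5 the difference was -0.53 (SE 0.33), and its next brightest probe set gave -1.01 (SE 0.37). Psma4 differed by -0.54 (SE 0.46), Psma2 by -0.34 (SE 0.30), Psma6 by -0.17 (SE 0.40) and Psma3 by -0.16 (SE 0.24). For 5 of the 7 alpha genes the lowest of the 6 arrays was LRC replicate 1, and for the other 2 it was LRC replicate 3. Without LRC replicate 1, 5 of 7 were lower, with a median of -0.38, and with LRC replicate 2 alone 4 of 7 were lower, with a median of -0.01. With the control covariate 3 of 7 were lower and the median was 0.09.

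The constitutive beta ring, which holds the catalytic sites, was split, with 5 of 7 lower and a median difference of -0.04. Psmb2, a structural subunit, differed by -0.53 (SE 0.27) and had no other probe set. Its groups overlapped only because LRC replicate 3 lay just above non-LRC replicate 2. Leaving out single arrays therefore could not turn its sign (-0.70 to -0.34). Psmb3, also structural, read 8.87, 9.06 and 9.43 on the non-LRC arrays and 10.43, 9.29 and 9.48 on the LRC arrays. LRC replicate 1 lay far above all other arrays, and LRC replicate 2 lay within the non-LRC range. The difference was 0.61 (SE 0.35), but its other, dimmer probe set differed by -1.30 (SE 0.44), so the direction for Psmb3 rests on the probe set. Psmb1 likewise differed by 0.17 (SE 0.26) on the probe set used and by -0.58 and -0.55 on the others. Psmb4 differed by -0.01 (SE 0.28).

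**Figure D2:**
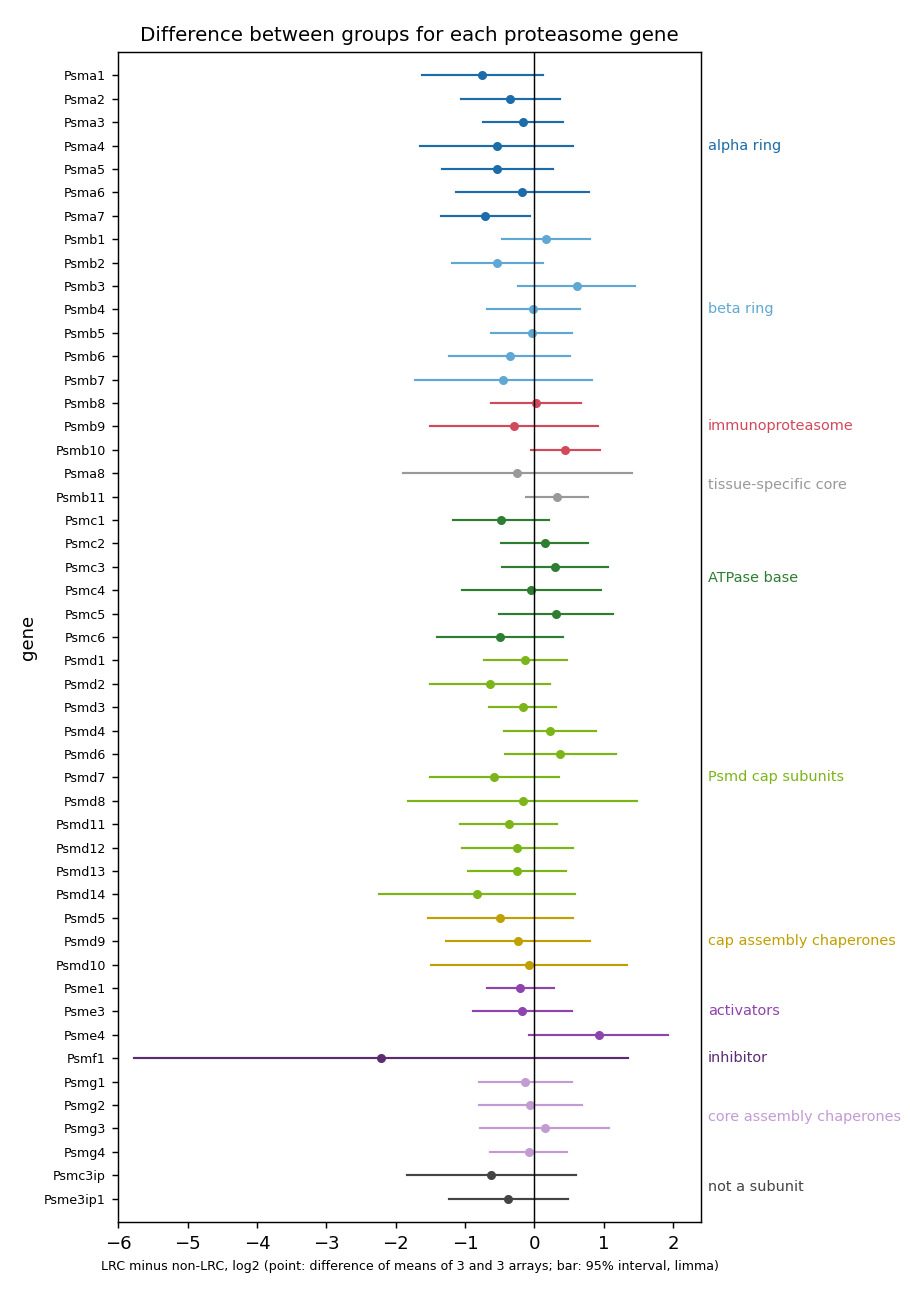
Difference between the mean of 3 LRC and 3 non-LRC arrays (x axis, log2) for each proteasome gene (y axis, coloured by role), with limma's 95% interval. Only the interval of Psma7 lies wholly on one side of 0, and that of Psmf1 is the widest.

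The 3 catalytic pairs compare a constitutive site with the interferon-induced subunit that replaces it. Psmb5, the chymotrypsin-like site, had non-LRC values of 7.80, 7.10 and 7.22 and LRC values of 7.24, 7.34 and 7.42. The LRC values lay inside the non-LRC range, and the difference was -0.04 (SE 0.24). Psmb8, which replaces it, read 9.09, 9.35 and 8.81 on the non-LRC arrays and 9.02, 9.52 and 8.77 on the LRC arrays, also overlapping, with a difference of 0.02 (SE 0.27). The 95% intervals were -0.62 to 0.54 for Psmb5 and -0.63 to 0.67 for Psmb8.

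Psmb6, the caspase-like site, had non-LRC values of 8.49, 8.64 and 8.27 and LRC values of 7.47, 8.81 and 8.05. LRC replicate 2 was the highest of all arrays and LRC replicate 1 the lowest, and the difference was -0.36 (SE 0.36). Psmb9, which replaces it, read 8.93, 9.14 and 9.16 on the non-LRC arrays and 9.21, 9.53 and 7.61 on the LRC arrays. LRC replicates 1 and 2 lay above all non-LRC arrays and LRC replicate 3 far below them. The difference was -0.29 (SE 0.50) and turned to 0.29 without LRC replicate 3.

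Psmb7, the trypsin-like site, had non-LRC values of 8.18, 7.59 and 9.02 and LRC values of 7.003, 8.66 and 7.78, a wide overlap with a difference of -0.45 (SE 0.53). Psmb10, which replaces it, read 7.99, 7.92 and 7.89 on the non-LRC arrays and 8.70, 8.27 and 8.18 on the LRC arrays. All LRC arrays lay above all non-LRC arrays, LRC replicate 1 the most. The difference was 0.45 (SE 0.21, unadjusted p = 0.0706, adjusted p = 0.998, limma), a 1.37-fold higher level. Because the groups were fully apart, it had to be positive without any single array (0.29 to 0.55) and with LRC replicate 2 alone (0.33). With the control covariate, in a fit that rests largely on LRC replicate 2, it was 0.26. Psmb10 has 1 probe set, so no second measurement bears on it.

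Within each array the log2 difference between the pair partners was also taken, and its change between groups was 0.06 for Psmb8 over Psmb5 and 0.06 for Psmb9 over Psmb6. For Psmb10 over Psmb7 it was -0.33 ± 0.74 in non-LRC and 0.57 ± 1.05 in LRC (SD, n = 3 each), a change of 0.90 that came with overlapping groups. Only the change can be read, since probe sets of different genes are not on one scale. Leaving out single arrays moved that change from 0.34 without LRC replicate 1 to 1.38 without LRC replicate 2, and it was -0.13 with the control covariate. That change was larger than the SD of the non-LRC arrays and smaller than the SD of the LRC arrays, and the changes of the other 2 pairs were smaller than both SDs.

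**Figure D3:**
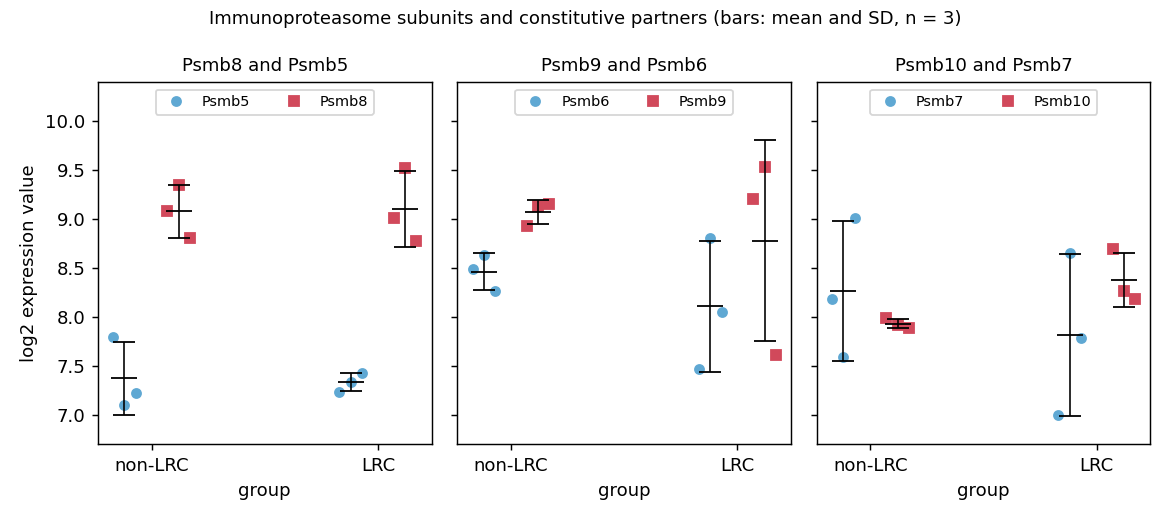
Log2 expression values (y axis) of each immunoproteasome subunit (red squares) and its constitutive partner (blue circles) in the 3 non-LRC and 3 LRC arrays, with mean and SD. All LRC values of Psmb10 lie above its non-LRC values, and the groups of the other 5 genes overlap; heights are not comparable between genes.

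Of the tissue-specific core subunits, Psmb11, known from the thymus cortex, lay below the median of every array, with non-LRC values of 2.86, 2.66 and 2.499 and LRC values of 3.02, 2.90 and 3.08. LRC replicate 2 lay only just above non-LRC replicate 1, so the groups were barely apart, and the difference was 0.33 (SE 0.19). Psma8, the alpha subunit known from the testis, ranged from 4.31 to 6.97 and differed by -0.24 (SE 0.68).

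In the cap, the 6 ATPase genes were evenly split, with 3 lower and 3 higher and a median difference of 0.05. Psmc1 had non-LRC values of 9.33, 9.12 and 9.79 and LRC values of 8.50, 9.07 and 9.23. LRC replicate 3 lay above the lowest non-LRC array, so the groups overlapped, and the difference was -0.47 (SE 0.29). Psmc6 differed by -0.49 (SE 0.38), Psmc4 by -0.04 (SE 0.42), Psmc2 by 0.15 (SE 0.26), Psmc3 by 0.29 (SE 0.32) and Psmc5 by 0.31 (SE 0.34). On LRC replicate 1 the ATPase genes deviated from their own means by a median of -0.32, and on LRC replicates 2 and 3 by 0.06 and 0.13.

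Among the 11 other cap subunits 9 had a lower mean in LRC, with a median difference of -0.24. Psmd2, a large scaffold that receives ubiquitin shuttles, read 7.37, 8.13 and 8.44 on the non-LRC arrays and 6.90, 7.76 and 7.35 on the LRC arrays. LRC replicate 2 lay above non-LRC replicate 1, and the difference was -0.64 (SE 0.36). Psmd14, the deubiquitinase of the cap, is given array by array, as Psmb3 is, after its values were seen. It had non-LRC values of 9.52, 9.50 and 9.71 and LRC values of 7.36, 9.55 and 9.35. Its difference of -0.82 (SE 0.58) came from LRC replicate 1 and was -0.13 without that array.

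The lid subunits Psmd7, Psmd11, Psmd12, Psmd13, Psmd3 and Psmd8 differed by -0.58, -0.37, -0.24, -0.25, -0.17 and -0.17. The scaffold Psmd1 differed by -0.13. The 2 cap subunits with a higher mean were Psmd6, a lid subunit, at 0.38 (SE 0.33), and Psmd4, a ubiquitin receptor, at 0.23 (SE 0.28). Psmd8 spanned 4.47 to 7.12 among the LRC arrays, wider than in non-LRC (6.07 to 6.59). The chaperones that assemble the ATPase ring, Psmd5, Psmd9 and Psmd10, differed by -0.49, -0.24 and -0.08. With the control covariate, in a fit that rests largely on LRC replicate 2, they differed by -0.38, -0.01 and -0.52. Psmd9 turned to 0.38 with LRC replicate 2 alone and to 0.21 without LRC replicate 3. Psmd10 turned to 0.40 without non-LRC replicate 3. For Psmd5 the difference came from LRC replicate 3 (6.30, against at least 7.32 on the other arrays) and was -0.03 without it.

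Among activators, Psme4, which opens the core without ATP and is linked to histone turnover, read 6.91, 5.80 and 5.79 on the non-LRC arrays and 6.58, 7.08 and 7.63 on the LRC arrays. LRC replicate 1 lay below non-LRC replicate 1, and the other LRC arrays lay above all non-LRC arrays. The difference was 0.93 (SE 0.41, unadjusted p = 0.0634, adjusted p = 0.998, limma), a 1.91-fold higher level. The probe set used carries a suffix for sequences shared between transcripts, and the next brightest, without that suffix, differed by 0.25 (SE 0.31). On 4 of 5 further probe sets of Psme4 the difference was also positive, at 0.30 or less. On the probe set used it was 0.67 to 1.30 without single arrays. With the covariate it was 0.97 there, about as large as without the covariate. Psme1, an interferon-induced activator, differed by -0.20 (SE 0.20) and Psme3, its nuclear relative, by -0.17 (SE 0.30).

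Psmf1, known as an inhibitor of the core, varied most. It had non-LRC values of 8.08, 6.95 and 7.34 and LRC values of 1.95, 5.59 and 8.20. The LRC arrays ran from the lowest to the highest of all 6, and the difference was -2.21 (SE 1.48). Without LRC replicate 1 it was -0.56 and without LRC replicate 3 it was -3.69. Its probe set carries a suffix for sequences shared between transcripts, and its next brightest probe set differed by -0.004. The chaperones of alpha ring assembly, Psmg1, Psmg2, Psmg3 and Psmg4, differed by -0.13, -0.06, 0.15 and -0.08, smaller than their standard errors. The 2 genes outside the proteasome, Psmc3ip and Psme3ip1, differed by -0.62 (SE 0.50) and -0.37 (SE 0.35).

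Array by array, LRC replicate 1 was the lowest of the 6 for 19 of the 49 members (38.8%, against 18.3% of all genes), LRC replicate 3 for 15 (30.6%, against 14.9%) and LRC replicate 2 for 1 (2.04%, against 21.3%). LRC replicate 1 was the highest array for 31.6% of all genes, but for 7 members (14.3%). The members were bright (median level 8.02, against 5.03 over all genes), and these shares were not taken for the brighter genes alone. On LRC replicate 1 genes at or above the median level deviated from their own means by a median of -0.08, against 0.09 over all genes. The members of the core deviated from their own means by a median of -0.56, 0.17 and -0.09 on LRC replicates 1, 2 and 3, and by 0.17, 0.11 and 0.15 on the non-LRC arrays. The 2 arrays low for the alpha ring were those with the brightest hybridization controls. On LRC replicate 2 the controls were at 10.60 and the alpha ring median was 0.26, inside the 0.17 to 0.29 of the non-LRC arrays. The pattern was not particular to the alpha ring. The Psmd cap subunits were at -0.35, 0.31 and -0.16 on LRC replicates 1, 2 and 3. Psmc3ip and Psme3ip1, which encode no subunit, had medians of -0.33, 0.57 and -0.99. The beta ring and the ATPase genes were not low on LRC replicate 3 (0.05 and 0.13). The controls were bright only on LRC replicates 1 and 3, so their level and the group cannot be told apart on those arrays. The fit with the covariate rests largely on LRC replicate 2, and the part of the controls' level in the lean was not tested.

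**Figure D4:**
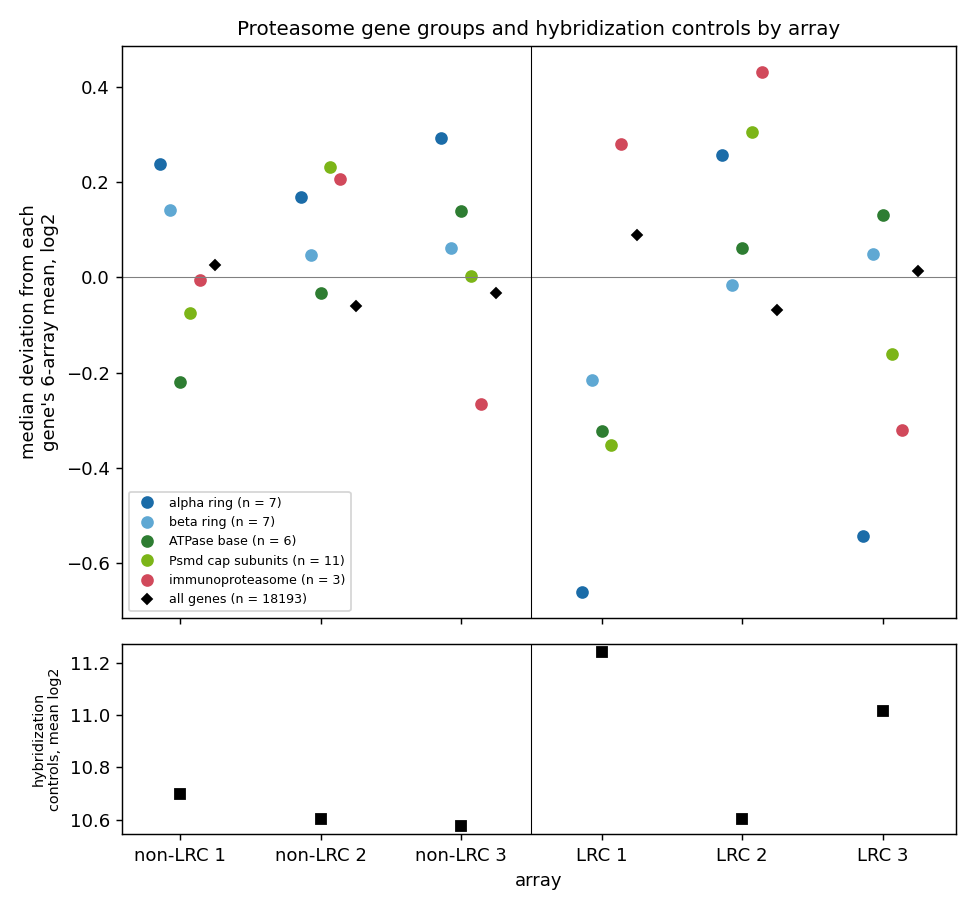
Upper panel: median deviation of each proteasome gene group, and of all genes, from each gene's 6-array mean (log2) on every array; lower panel: mean log2 of the hybridization controls. The alpha ring is at -0.66 and -0.54 on LRC replicates 1 and 3, where the controls are brightest, and at 0.26 on LRC replicate 2. The Psmd cap subunits are at -0.35, -0.16 and 0.31 on the same arrays.

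The other genes of the pathway were compared in the same fit, and 0 passed the threshold in either direction in any list. For the counts below, 45.1% of all genes and 52.9% of genes at or above the median level had a lower mean. Of 9 proteasome-associated factors 4 were lower and 5 higher (median 0.02), and Ube3c, a ubiquitin ligase that acts at the proteasome, was at 5.18 ± 0.66 in non-LRC and 6.85 ± 0.50 in LRC (SD, n = 3 each), a difference of 1.67 (SE 0.41, unadjusted p = 0.00622, adjusted p = 0.998, limma). Pomp, a chaperone of core assembly, differed by 0.23 (SE 0.23) and Uba6, a ubiquitin-activating enzyme, by 0.50 (SE 0.72). Of 13 genes tied to proteasome gene transcription 7 were lower and 6 higher (median -0.02), with Stat3 at -0.57 (SE 0.30) and Maff, a small Maf partner, at 0.58 (SE 0.40). Named for their role after the values were seen, Nfe2l1 differed by -0.04 (SE 0.31) and Nfe2l2 by 0.24 (SE 0.23). Of 8 shuttle receptors and genes of the Vcp complex 5 were lower (median -0.09), with Ubqln2, a shuttle, at 0.30 (SE 0.20) and Ufd1, a cofactor of Vcp, at -0.49 (SE 0.47). Vcp itself, the ATPase that extracts ubiquitinated proteins, differed by 0.15 (SE 0.28). The median of the shuttle and Vcp genes was 0.06, with 3 of 8 lower, without LRC replicate 1 and -0.15 without non-LRC replicate 3. Leaving out single arrays moved the median of the associated factors between -0.13 (without non-LRC replicate 3) and 0.18 (without non-LRC replicate 2), and that of the transcription genes between -0.03 (without non-LRC replicate 3) and 0.23 (without LRC replicate 3).

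Of 10 genes of the interferon pathway that induces the immunoproteasome, 7 had a higher mean in LRC (median 0.47) and 3 a lower mean. A higher mean was found for 54.9% of all genes and 47.1% of genes at or above the median level, and a lower mean for 45.1% and 52.9%. Irf1, a transcription factor of Psmb9, differed by 0.53 (SE 0.21, unadjusted p = 0.0471, adjusted p = 0.998, limma). Irf2 differed by 1.02 (SE 0.55) and Ifnar2 by -1.03 (SE 0.58). The median was 0.18 without LRC replicate 3. Of 11 genes that process MHC class I antigens 6 were lower (median -0.05, from -0.10 without LRC replicate 2 to 0.01 without non-LRC replicate 2). Canx, a chaperone of the class I heavy chain, differed by -0.54 (SE 0.25), Erap1, which trims peptides, by -0.62 (SE 0.31) and Tapbpl, a peptide editor, by 0.75 (SE 0.36). Of 21 autophagy genes, the other route of protein breakdown, 13 were lower (median -0.18), and Ulk2, an initiating kinase, differed by -0.77 (SE 0.29). The autophagy median ranged from -0.27 without LRC replicate 2 to 0.07 without non-LRC replicate 1, and 10 of 21 were lower without non-LRC replicate 1 and also without LRC replicate 1.

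Protein folding genes and relatives of the cap lid also had mostly lower means in LRC. A lower mean was found for 45.1% of all genes and 52.9% of genes at or above the median level. Of 21 chaperone genes 18 had a lower mean in LRC (median -0.25), with Cct3, a subunit of the cytosolic chaperonin, at -0.80 (SE 0.32) and Hsp90aa1, a heat shock protein, at -0.45 (SE 0.25). The COP9 signalosome, built like the lid, had 8 of 9 lower (median -0.19), and eIF3, a translation factor of like architecture, 8 of 11 (median -0.08). The chaperone median was -0.39 without LRC replicate 2 and -0.15 without LRC replicate 3, and the eIF3 median -0.29 without LRC replicate 3 and -0.03 without LRC replicate 1. Without LRC replicate 1, 3 of 9 COP9 genes were lower, with a median of 0.12, and without LRC replicate 3 the COP9 median was -0.38. With the control covariate 15 of 21 chaperone genes were lower (median -0.23), 5 of 9 COP9 genes and 6 of 11 eIF3 genes (median -0.01), beside 22 of 49 proteasome genes (median 0.09). With LRC replicate 2 alone for LRC, 13 of 21 chaperone, 4 of 9 COP9 and 7 of 11 eIF3 genes were lower. Of all 18193 genes 10362 were lower with the covariate and 10353 with LRC replicate 2 alone. Of the 9097 genes at or above the median level, nearer to these bright lists, 4229 and 4293 were lower. The differences between these lists and the proteasome genes were not tested.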

How the data were processed

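RNA was extracted from sorted cells, amplified in 2 rounds and hybridized to 1 expression array per sample, per the labels' protocols. The deposited log2 values come from RMA, per the submitters' processing notes, without a version; the log base was read from the value range. Of 45101 probe sets 64 controls were left out and 45037 tested; 34945 name 1 gene, 932 several and 9160 none in the platform annotation. Psme2 shares a probe set with another symbol and is not analysed here. The comparison used limma 3.58.1 under R 4.3.3 (LRC minus non-LRC, Benjamini-Hochberg over all probe sets, threshold 0.05). In simulated arrays (45037 probe sets) 0% of changes of 1, 44% of 2, 64% of 3 and 82% of 4 (log2) were recovered, with 3 false calls. Changed probe sets were drawn at random from all of them, so the rates are not specific to the proteasome members. Members, lists and alternatives were chosen with earlier results of these data known. Given array by array were Psmb5 to Psmb10, members with an unadjusted p under 0.05 or separate groups, and the 2 of smallest p per particle. From each pathway list up to 3 genes of smallest p could be named, and Nfe2l1, Nfe2l2 and Vcp were added after their values were seen. Of 49 members 27 had other probe sets, which shared the sign of the one used in 11 genes, in part in 8 and not at all in 8. With arrays, precision is limited by their number, here 3 per group. Alternatives were another quantile normalization, median centring, a filter on dim probe sets, trend and robust moderation, array weights, other choices of probe set, the control covariate, the replicate block and leaving out arrays. Protein sequences were not used here.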

Additional observations from a re-analysis of the deposited data

How the results depend on the processing

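No setting called a member or any probe set at the adjusted threshold. An unadjusted p under 0.05 gave 1673 probe sets and 1 member. No member has a called direction, so the sign changes below are of differences that did not pass. With the hybridization controls as a covariate the median difference was 0.09 over all members, 0.11 in the core and -0.13 for Psmb10 minus Psmb7, and the sign changed (a fit that rests largely on LRC replicate 2) for Psma2 (0.13), Psma3 (0.14), Psma4 (0.22), Psma6 (0.0932), Psmb1 (-0.0651), Psmb4 (0.31), Psmb6 (0.29), Psmb7 (0.39), Psmb9 (0.0511), Psma8 (0.24), Psmc4 (0.34), Psmd1 (0.25), Psmd6 (-0.0321), Psmd12 (0.14), Psmd13 (0.21), Psmd14 (0.16), Psmg1 (0.20), Psmg4 (0.14) and Psme3ip1 (0.18). With LRC represented by replicate 2 alone, an unreplicated value, the medians were 0.15 over all members, 0.0296 in the core, 0.10 in the cap and 0.44 in the immunoproteasome, Psmb10 minus Psmb7 was -0.0581, and the sign changed for Psma2 (0.16), Psma3 (0.0689), Psma4 (0.50), Psmb1 (-0.11), Psmb4 (0.17), Psmb6 (0.34), Psmb7 (0.39), Psmb9 (0.45), Psma8 (0.87), Psmc4 (0.23), Psmd1 (0.28), Psmd7 (0.12), Psmd8 (0.43), Psmd12 (0.15), Psmd13 (0.18), Psmd9 (0.38), Psmg1 (0.19), Psmg4 (0.22), Psmc3ip (0.28) and Psme3ip1 (0.37). With array weights it changed for Psma6 (0.14), Psmb4 (0.10), Psmb5 (0.0764), Psmb8 (-0.0388) and Psmg3 (-0.12), and after a further quantile normalization for Psmb4 (0.0304). With a gene's probe sets averaged it changed for Psma6 (0.0762), Psmb1 (-0.32), Psmb3 (-0.35), Psmb8 (-0.0521), Psmc4 (0.25) and Psmg2 (0.45), and with the probe set of highest interquartile range for Psma1 (0.86), Psmb1 (-0.55), Psmb3 (-1.30), Psmc2 (-0.14), Psmc4 (0.54), Psmd4 (-0.23), Psmd9 (0.12), Psmg2 (1.81) and Psmc3ip (0.38). With probe sets free of an x or s suffix, chosen after the data were seen, it changed for Psmd11 (0.16) and Psmc3ip (0.38).

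Leaving out single arrays gave medians of -0.33 to -0.10 over all members, -0.47 to -0.0393 in the core (the latter without LRC replicate 1), -0.45 to -0.0654 in the cap (-0.45 without LRC replicate 2), -0.19 to 0.29 in the immunoproteasome and -0.21 to -0.03 for activators, inhibitor and chaperones. The catalytic pairs ranged from -0.15 to 0.33 (Psmb8 minus Psmb5), -0.47 to 0.62 (Psmb9 minus Psmb6) and 0.34 to 1.38 (Psmb10 minus Psmb7). Sign changes occurred for Psma3 (-0.28 to 0.0322), Psma6 (-0.49 to 0.20), Psmb1 (-0.0109 to 0.31), Psmb4 (-0.19 to 0.25), Psmb5 (-0.18 to 0.17), Psmb8 (-0.19 to 0.19), Psmb9 (-0.67 to 0.29), Psma8 (-0.80 to 0.53), Psmc4 (-0.49 to 0.28), Psmd1 (-0.33 to 0.0459), Psmd4 (-0.0304 to 0.44), Psmd8 (-0.68 to 0.64), Psmd12 (-0.44 to 0.0392), Psmd9 (-0.54 to 0.21), Psmd10 (-0.61 to 0.40), Psme3 (-0.37 to 0.0533), Psmg1 (-0.35 to 0.0512), Psmg2 (-0.33 to 0.16), Psmg3 (-0.13 to 0.45) and Psmg4 (-0.23 to 0.0668). With the replicate number as a block 0 probe sets and 0 members were called, and the differences are the same by construction. Deviations of same-numbered arrays correlated at 0.080, 0.141 and 0.081, and all 6 arrays correlated best with their own number, which is a hint from the data and not the design. Leaving out dim probe sets removed Psmb11 and kept 48 members. Median centring and trend and robust moderation changed no sign.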
